A study of Homo sapiens with 4 samples.

Results

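The mitochondrial ribosomal protein genes were taken as all listed genes whose symbol is MRPL or MRPS followed by a number, with or without a final A, B or C, which gave 76 of the 29209 genes in the files, 48 named for the large subunit (MRPL) and 28 for the small subunit (MRPS). They were followed in HaCaT cells, an immortalised human keratinocyte line, as polyA RNA-seq read counts and FPKM (a count scaled by the length of the gene and the summed counts of the library). The TCN1_OE group held 2 libraries of cells given a lentivirus to overexpress TCN1, which encodes the vitamin B12-binding protein transcobalamin 1, and the NC group held 2 libraries of negative control cells, whose vector the labels do not describe. All cells were HaCaT grown with 10% serum, penicillin and streptomycin, and were lysed after 48 hours, counted from a point that the labels leave out. The labels name neither the promoter of the vector nor any cloning of the line. They also do not say that the libraries of a group came from different cultures; p-values therefore reflect a spread between libraries that may be purely technical.

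The mitochondrial ribosome translates the few messenger RNAs encoded in mitochondrial DNA, all of them for subunits of the respiratory chain and ATP synthase. Its ribosomal RNAs are mitochondrially encoded, while its proteins are all encoded in the nucleus, made on cytosolic ribosomes and imported. Some of these proteins have a counterpart in the bacterial ribosome and others are specific to mitochondria. Symbols follow the first assignment to a subunit, so that MRPS30 and MRPS18A, which structures place in the large subunit, and MRPS36, which is known as a component of 2-oxoglutarate dehydrogenase, carry a small-subunit name. Structures otherwise put the MRPL proteins around the peptidyl transferase site, the exit tunnel, the stalk and the central protuberance, and the MRPS proteins around the decoding site and the path of the messenger RNA.

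The libraries held 16586500 and 14756073 counts in TCN1_OE and 19973550 and 11593377 counts in NC, of which the members took 0.296 ± 0.003% in TCN1_OE and 0.326 ± 0.011% in NC (SD, n = 2 each). TCN1 itself stood at 68.3 and 56.6 FPKM in TCN1_OE and at 1.67 and 0.978 FPKM in NC, which is 5.48 ± 0.20 (SE) on the log2 fold change scale, edgeR adjusted p 2.4e-06, so it followed the labels. All 6 keratinocyte markers looked up were expressed, with a summed level of 6257 and 6915 FPKM in TCN1_OE and 5763 and 6233 FPKM in NC. The differentiation keratin KRT1 stood at 376 and 394 FPKM in TCN1_OE and 223 and 229 FPKM in NC, and KRT10 at 245 and 244 FPKM in TCN1_OE and 137 and 134 FPKM in NC; their part in the results below was not tested. Of 9 markers of fibroblasts, leukocytes, endothelium and melanocytes, 7 were listed, and these summed to 4.09 and 4.92 FPKM in TCN1_OE and 3.62 and 4.68 FPKM in NC. PTPRC, which marks leukocytes, PDGFRB, which marks mesenchymal cells, and CD3E, which marks T cells, had 0 to 7 counts in every library. The others were low but present. MLANA had 12 to 20 counts, PMEL 37 to 65, VWF 135 to 196 and COL1A1 221 to 289, the last at 1.61 to 2.12 FPKM.

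Both subunits were well expressed, and the large one stood higher per length, by the lengths that the FPKM used. The median over genes of the mean level in the 4 libraries was 18.2 FPKM for MRPL genes and 10.1 FPKM for MRPS genes, and 35 of 48 and 14 of 28 reached 10 FPKM. MRPL41, a mitochondria-specific protein, was the highest of all in FPKM, with 72.3 and 91.6 FPKM in TCN1_OE and 72.5 and 78.1 FPKM in NC. Its FPKM used a length of 582 bp, where the GENCODE 29 annotation gives 1262 exonic bases, and its rank depends on that length. MRPL14 and MRPL18, counterparts of bacterial L14 and L18, followed within the large subunit. MRPL14 had 46.9 and 50.6 FPKM in TCN1_OE and 50.3 and 53.8 FPKM in NC, and MRPL18 had 49.2 and 43.4 FPKM in TCN1_OE and 55.3 and 46.1 FPKM in NC. The ranges of MRPL14 and MRPL18 overlapped, so their order is within the spread between libraries. In the small subunit MRPS26, specific to mitochondria, stood highest, with 46.0 and 52.5 FPKM in TCN1_OE and 56.3 and 59.4 FPKM in NC. MRPS34, also mitochondria-specific, had 40.2 and 42.0 FPKM in TCN1_OE and 43.6 and 44.9 FPKM in NC, and MRPS16, the counterpart of bacterial S16, had 37.7 and 41.7 FPKM in TCN1_OE and 40.4 and 43.1 FPKM in NC. The ranges of MRPS34 and MRPS16 overlapped too.

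At the other end, 10 members averaged under 1 FPKM, 5 in each subunit. MRPS12, whose bacterial counterpart S12 lines the decoding site, had 0 and 1 count in TCN1_OE and 0 and 0 counts in NC, where 3 counts would be 0.0856 to 0.148 FPKM. MRPL2, the counterpart of bacterial L2, had 2 and 16 counts in TCN1_OE and 6 and 4 counts in NC. MRPL45, which lies at the exit tunnel and meets the inner membrane, had 3 and 6 counts in TCN1_OE and 8 and 6 counts in NC. These 3 genes did not pass the filter on low counts and were not tested, which left 46 MRPL and 27 MRPS genes. MRPS24, the counterpart of bacterial S3, passed with 11 and 6 counts in TCN1_OE and 15 and 10 counts in NC. In the GENCODE 29 annotation of GRCh38, other genes cover 16.3% of the exonic bases of MRPS12, 14.7% of those of MRPL2, 23.2% of those of MRPS24, where the read-through gene URGCP-MRPS24 lies, and 0.0% of those of MRPL45. Of the 9 members with at least 25% of their exonic bases under another gene, 3 averaged under 1 FPKM, against 7 of the other 67. The part of read assignment in these low values was not tested. The FPKM also depends on the gene length used, which ran from 582 bp for MRPL41 to 19524 bp for MRPS27. For MRPS27 GENCODE 29 gives 6511 exonic bases, and for MRPL19 it gives 4601 where 8947 bp were used. The order of the genes and the difference in level between the subunits depend on these lengths.

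**Figure D1:**
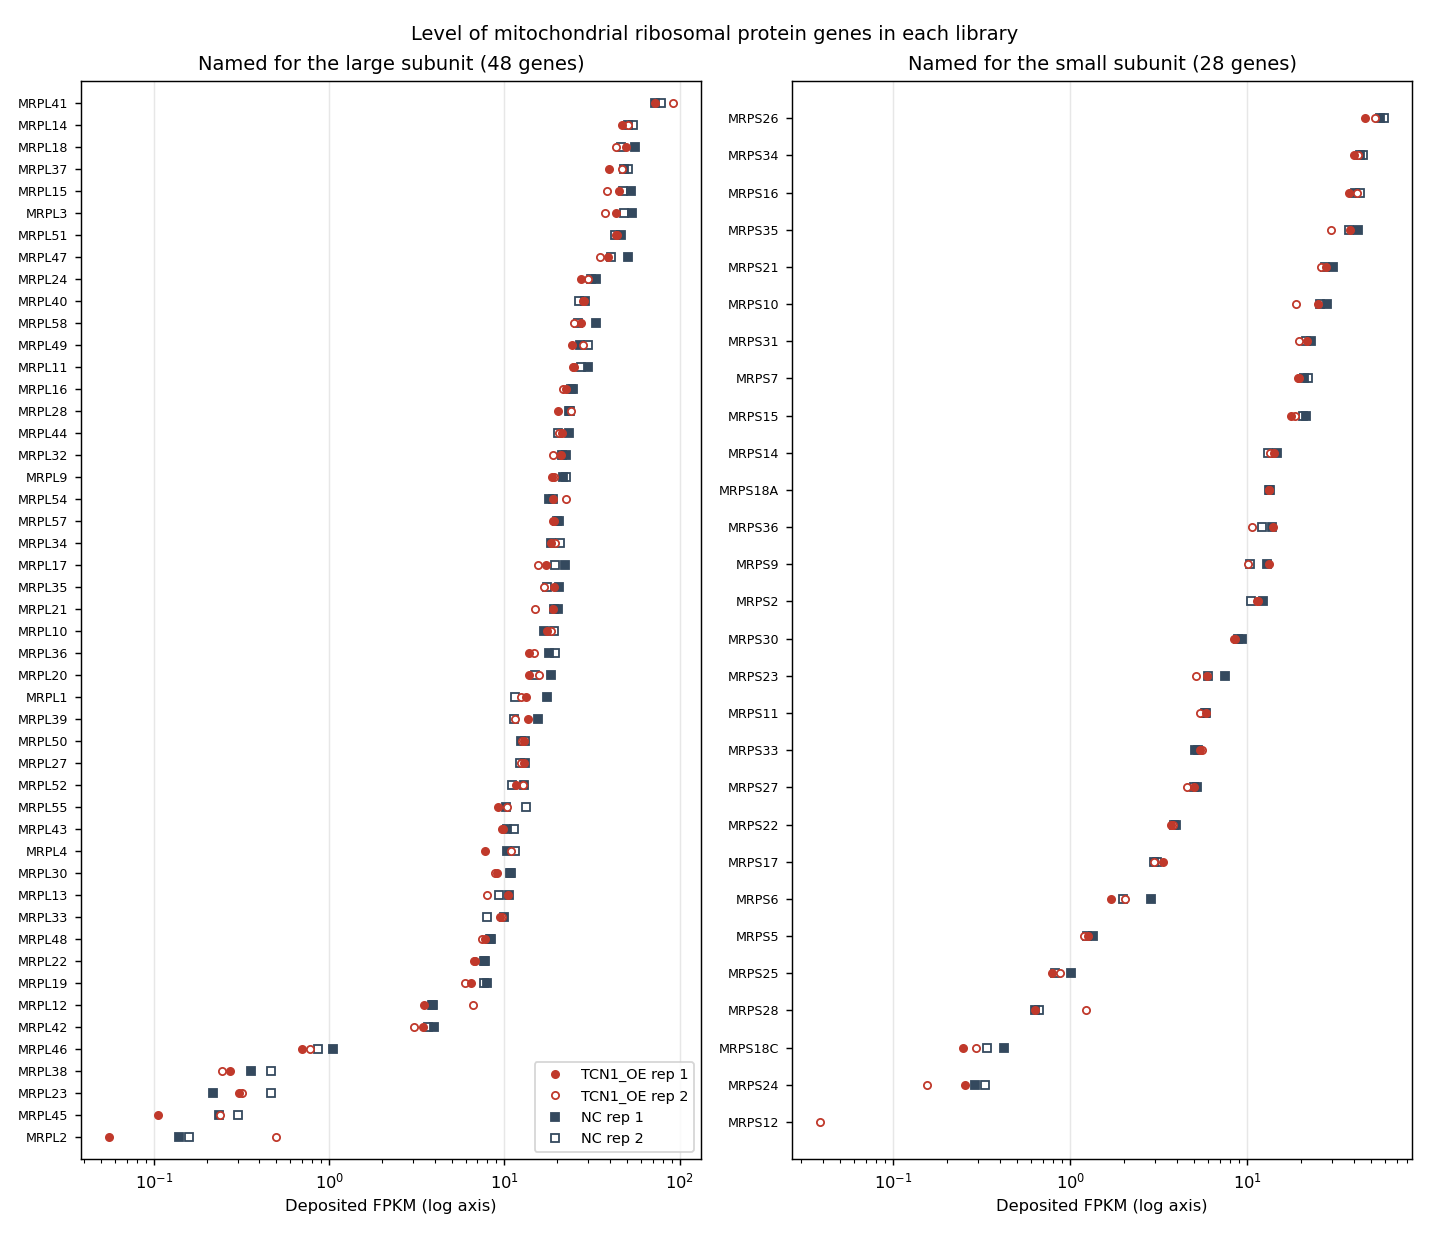
Deposited FPKM (log axis) of each of the 48 MRPL genes and 28 MRPS genes in the 2 TCN1_OE libraries (red circles) and the 2 NC libraries (dark squares), ordered by mean level; values of 0 are not drawn. Most genes lie between 1 and 100 FPKM with the 4 libraries close together, MRPL41 is highest, and 10 genes average under 1 FPKM, where the libraries spread more.

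No member passed the test between TCN1_OE and NC, but most lay slightly lower in TCN1_OE. With edgeR's quasi-likelihood test and Benjamini-Hochberg adjustment over all 15113 genes tested, 0 of 73 members were called higher and 0 lower at an adjusted p under 0.05, where 0.285% of all genes were called higher and 0.212% lower, or 0.496% in either direction. The smallest adjusted p of a member was 0.210. DESeq2 also called 0 members in either direction, where it called 0.957% of the genes to which it gave an adjusted p higher and 0.992% lower. At an unadjusted p under 0.05, edgeR gave 0 members higher, where 6.00% of all genes were, and 7 lower, or 9.59%, where 6.81% of all genes were. The fitted log2 fold change of TCN1_OE over NC was below 0 in 63 of 73 members (86.3%), against 49.7% of all genes tested. Its median was -0.12 over the members and 0.00 over all genes tested. The median standard error of a single member was 0.12 on the same log2 scale, as large as the median change, and 35 members had a change smaller than their own standard error. In bulk RNA, fewer cells that express a gene and less RNA per cell cannot be told apart.

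**Figure D2:**
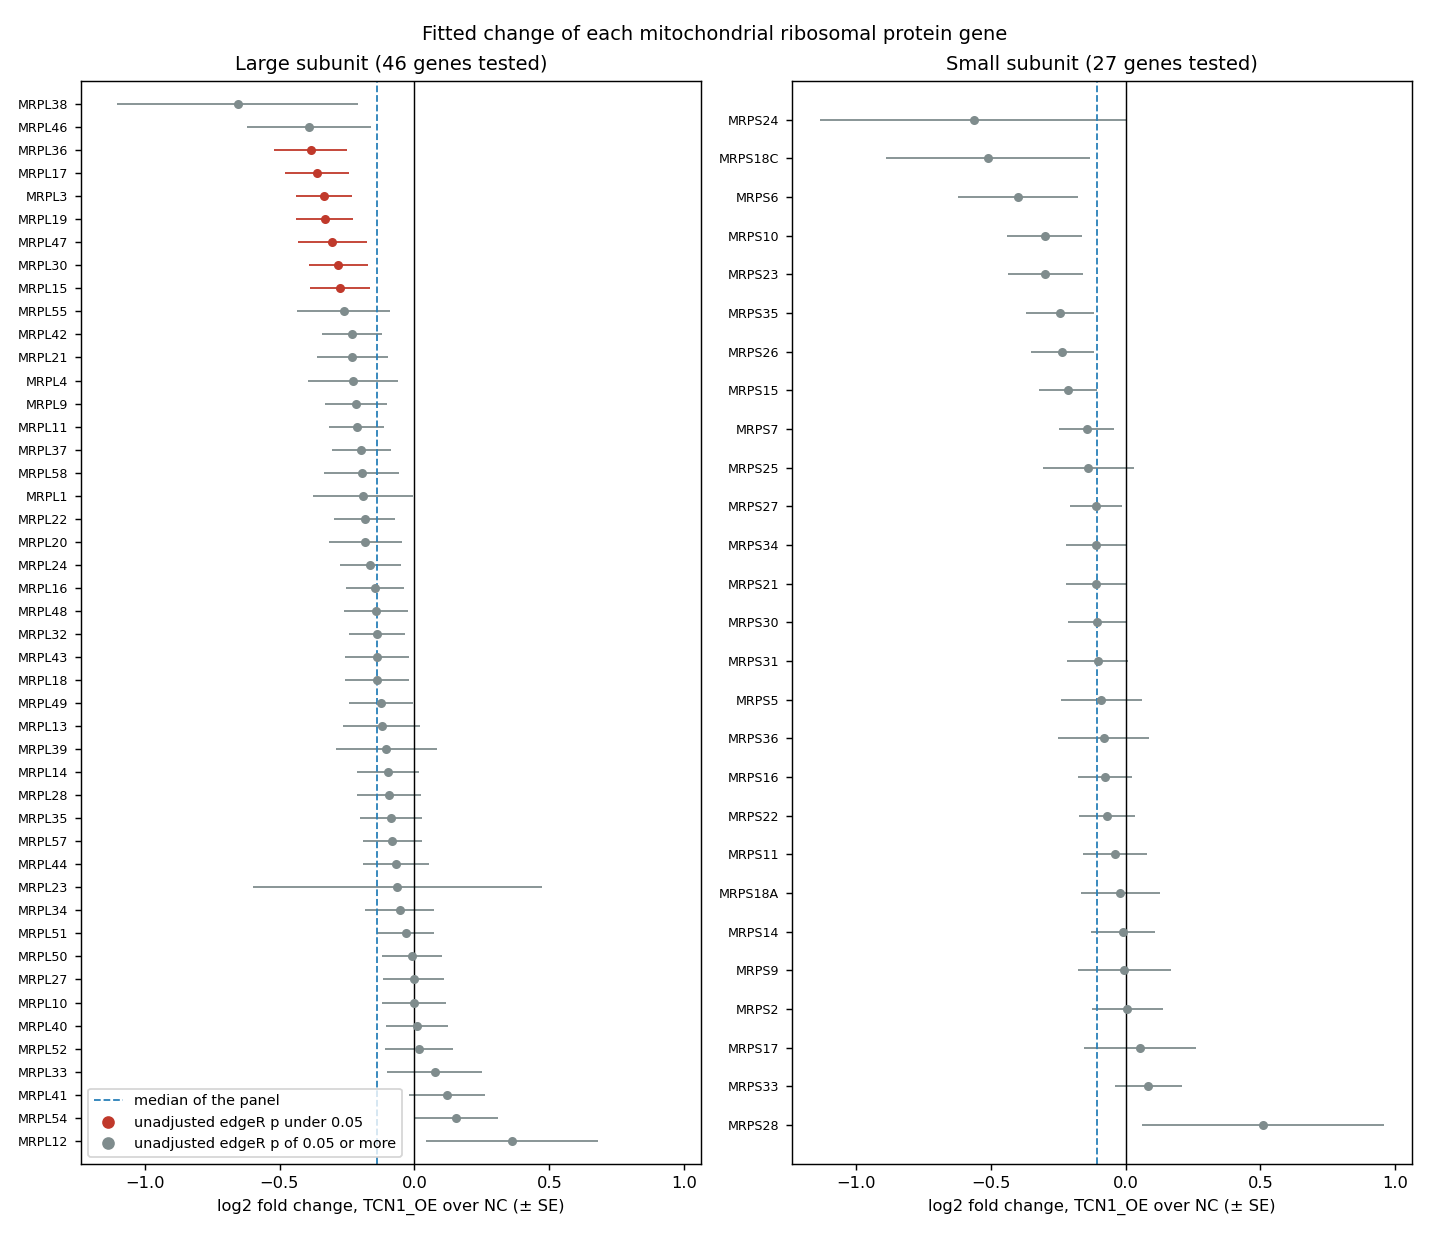
Fitted log2 fold change of TCN1_OE over NC (point) with its standard error (bar) for the 46 MRPL and 27 MRPS genes tested by edgeR; red points have an unadjusted p under 0.05 and the dashed line is the median of the panel. All 7 red points are in the large subunit and below 0, and 63 of the 73 points are below 0.

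All 7 members with an unadjusted p under 0.05 belonged to the large subunit and have a bacterial counterpart. The number with such a p changed with the library left out and was smallest without NC replicate 1. The sizes of the changes moved too. That of MRPL3 ran from -0.44 (without TCN1_OE replicate 1) to -0.25 (without TCN1_OE replicate 2). That of MRPL17 ran from -0.44 (without NC replicate 2) to -0.27 (without NC replicate 1). MRPL3 (ENSG00000114686, GRCh38 chromosome 3, 131462212 to 131502983, minus strand), whose bacterial counterpart L3 reaches towards the peptidyl transferase site, had the smallest p. MRPL3 had 43.3 and 37.3 FPKM in TCN1_OE and 53.4 and 48.0 FPKM in NC, with both TCN1_OE libraries below both NC libraries. In FPKM the gap between the groups was narrower than the gap within either group. The log2 fold change of MRPL3 was -0.33 ± 0.10 (SE), with an edgeR adjusted p of 0.210. MRPL19 (chromosome 2, 75646783 to 75690851, plus strand), the counterpart of L19, had 6.48 and 5.93 FPKM in TCN1_OE and 7.92 and 7.66 FPKM in NC, a log2 fold change of -0.33 ± 0.10. MRPL17 (chromosome 11, 6680782 to 6683401, minus strand), the counterpart of L17, had 17.2 and 15.4 FPKM in TCN1_OE and 22.2 and 19.5 FPKM in NC, a log2 fold change of -0.36 ± 0.12. The groups did not overlap in either gene, and the gap between them was wider than the gap within either group in MRPL19, while in MRPL17 it was wider than that within TCN1_OE and narrower than that within NC.

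MRPL36 (chromosome 5, 1798386 to 1801366, minus strand), the counterpart of the small protein L36, had the lowest fold change of the MRPL genes that averaged at least 1 FPKM. It had 13.9 and 14.7 FPKM in TCN1_OE and 17.9 and 19.4 FPKM in NC, a log2 fold change of -0.39 ± 0.14. MRPL30, the counterpart of L30, had 9.07 and 8.80 FPKM in TCN1_OE and 10.8 and 10.9 FPKM in NC, the closest agreement within groups among the genes with an unadjusted p under 0.05, and a log2 fold change of -0.28 ± 0.11. Other genes cover 19.5% of its exonic bases. MRPL15, the counterpart of L15, had 45.0 and 38.2 FPKM in TCN1_OE and 53.0 and 47.4 FPKM in NC, a log2 fold change of -0.28 ± 0.11, which was -0.18 without TCN1_OE replicate 2. MRPL47, the counterpart of L29 at the exit tunnel, is named because it completes the 7 and was chosen after its values were seen. It had 39.1 and 35.1 FPKM in TCN1_OE and 50.3 and 40.8 FPKM in NC, a log2 fold change of -0.30 ± 0.13. In MRPL15 and in MRPL47 the gap between the groups was narrower than the gap within either group. Over these 7 genes the edgeR adjusted p ran from 0.210 for MRPL3 to 0.350 for MRPL47, so none was called.

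On the other side of 0 in the large subunit stood 6 genes, all with edgeR adjusted p over 0.6. MRPL12, the stalk protein that corresponds to bacterial L7/L12 and recruits translation factors, had 3.47 and 6.58 FPKM in TCN1_OE and 3.92 and 3.85 FPKM in NC, so its log2 fold change of 0.36 ± 0.32 rested on TCN1_OE replicate 2 and was -0.18 without it. Another gene covers 68.2% of its exonic bases. MRPL54, specific to mitochondria, had 19.0 and 22.3 FPKM in TCN1_OE and 18.0 and 19.0 FPKM in NC, a log2 fold change of 0.15 ± 0.15, which was 0.017 without TCN1_OE replicate 2 and 0.27 without TCN1_OE replicate 1. MRPL41 stood at 0.12 ± 0.14, and at -0.08 without TCN1_OE replicate 2. The groups overlapped in all 3 genes.

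In the small subunit no gene had an unadjusted p under 0.05. MRPS23, specific to mitochondria, came nearest, with 5.91 and 5.13 FPKM in TCN1_OE and 7.52 and 5.96 FPKM in NC, a log2 fold change of -0.30 ± 0.14 with an edgeR adjusted p of 0.410. MRPS10, the counterpart of bacterial S10, had 25.1 and 18.9 FPKM in TCN1_OE and 28.1 and 25.8 FPKM in NC, a log2 fold change of -0.30 ± 0.14. In both genes the libraries of one group differed by more than the gap between the groups. The log2 fold change of MRPS23 was -0.12 without NC replicate 1, and that of MRPS10 was -0.13 without TCN1_OE replicate 2 and -0.51 without TCN1_OE replicate 1. MRPS35, specific to mitochondria, had 37.9 and 29.8 FPKM in TCN1_OE and 42.0 and 37.8 FPKM in NC, and overlapped in FPKM but not in CPM scaled by TMM factors. MRPS15, the counterpart of S15, had 17.6 and 18.6 FPKM in TCN1_OE and 21.4 and 20.5 FPKM in NC, with the groups apart and a log2 fold change of -0.21 ± 0.11. MRPS26, the highest of the subunit, stood at -0.23 ± 0.12, and at -0.13 without TCN1_OE replicate 1. MRPS35 stood at -0.24 ± 0.13, and at -0.097 without TCN1_OE replicate 2 and -0.42 without TCN1_OE replicate 1. MRPS6, the counterpart of S6, had 1.71 and 2.03 FPKM in TCN1_OE and 2.87 and 2.00 FPKM in NC, so its log2 fold change of -0.40 ± 0.22 rested on NC replicate 1 and was -0.11 without it, and the groups overlapped.

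MRPS33, specific to mitochondria, was the one member in which both TCN1_OE libraries lay above both NC libraries, with 5.41 and 5.56 FPKM in TCN1_OE and 5.05 and 5.28 FPKM in NC, a log2 fold change of 0.08 ± 0.12. MRPS17, the counterpart of S17, had 3.33 and 2.97 FPKM in TCN1_OE and 2.98 and 3.08 FPKM in NC, with overlapping groups. MRPS18A and MRPS18C are paralogs that end up in different subunits. MRPS18A, placed in the large subunit, had 13.2 and 13.2 FPKM in TCN1_OE and 13.3 and 13.4 FPKM in NC, the smallest spread of any member described here, and RSPH9 covers 47.0% of its exonic bases. MRPS18C, the small-subunit counterpart of bacterial S18, was far lower, with 0.248 and 0.293 FPKM in TCN1_OE and 0.422 and 0.337 FPKM in NC, on 20 and 21 counts in TCN1_OE and 41 and 19 counts in NC. MRPS18B was not analysed here. MRPS30, the other large-subunit protein with a small-subunit name, had 8.51 and 8.47 FPKM in TCN1_OE and 9.34 and 8.86 FPKM in NC, a log2 fold change of -0.11 ± 0.11. MRPS36 had 14.0 and 10.6 FPKM in TCN1_OE and 13.8 and 12.1 FPKM in NC, with overlapping groups and a log2 fold change of -0.08 ± 0.17.

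Library by library, 36 of 73 members (49.3%) had both TCN1_OE values below both NC values in CPM (counts scaled by library size and by TMM factors, the trimmed mean of M-values), against 21.8% of all genes tested. In the opposite direction 1 member had groups that did not overlap, against 21.2% of all genes tested. Each member was then set against its own mean over the 4 libraries. The median deviation of the MRPL genes was -0.07 and -0.06 on the log2 scale in TCN1_OE replicates 1 and 2, and 0.10 and 0.05 in NC replicates 1 and 2. For the MRPS genes it was -0.02 and -0.05 in TCN1_OE and 0.09 and 0.02 in NC. The members thus lay lowest in the TCN1_OE libraries and highest in NC replicate 1. Without NC replicate 1, 53 of 74 members tested had a change below 0 and the MRPS median was -0.06, against -0.11 with all libraries. The difference between the 2 libraries of a group had no common direction. The median log2 ratio of replicate 2 to replicate 1 was 0.03 in TCN1_OE and -0.06 in NC. Of the 73 members, 28 were lower in replicate 2 of both groups, where 5120 of all 15113 genes tested were.

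**Figure D3:**
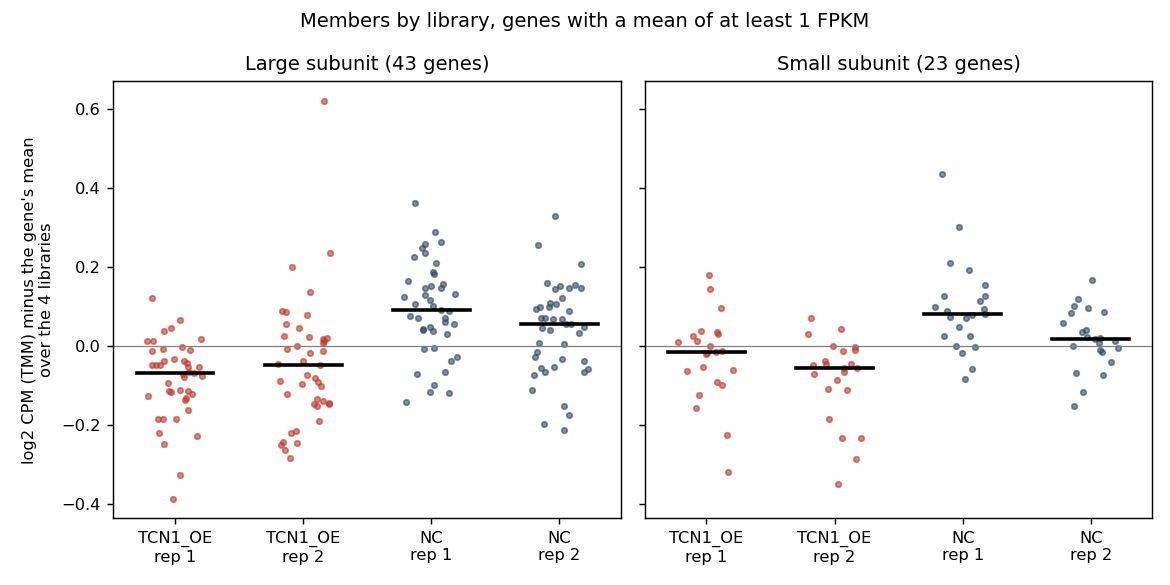
Log2 CPM (TMM-scaled) of each member minus its own mean over the 4 libraries, for the 43 MRPL and 23 MRPS genes that averaged 1 FPKM or more; each point is a gene and each black line the median of a library. The medians of both TCN1_OE libraries lie below 0 and those of both NC libraries above 0 in both subunits, while single genes in every library spread to either side.

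The large and the small subunit were then compared. The summed level of the 48 MRPL genes was 919 and 935 FPKM in TCN1_OE and 1036 and 986 FPKM in NC, or 927 ± 10.7 and 1011 ± 35.5 FPKM (SD, n = 2 each), a difference of -8.32%. That of the 28 MRPS genes was 382 and 369 FPKM in TCN1_OE and 419 and 405 FPKM in NC, or 376 ± 9.02 and 412 ± 10.1 FPKM, a difference of -8.83%. In both sums the groups did not overlap. The ratio of the large to the small sum was 2.41 and 2.53 in TCN1_OE and 2.47 and 2.43 in NC, so that the libraries of TCN1_OE bracketed those of NC. With so few libraries an exact permutation test of the sums, two-sided, could not give a p under 1 in 3, and none was made.

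**Figure D4:**
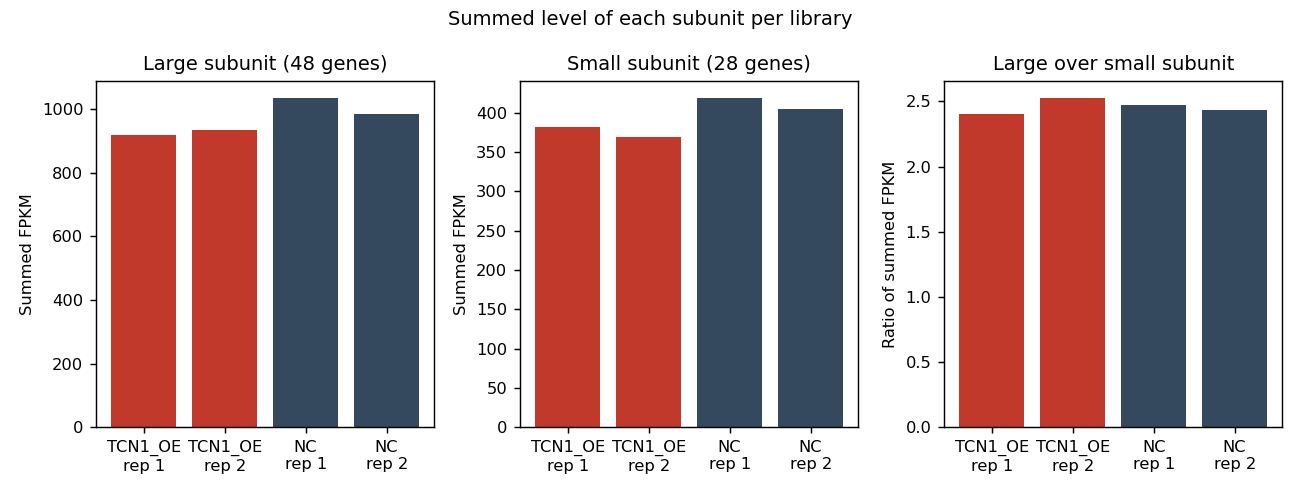
Summed FPKM of the 48 MRPL genes and the 28 MRPS genes, and the ratio of the 2 sums, in each TCN1_OE library (red) and each NC library (dark); all axes start at 0. Both sums are lower in the TCN1_OE libraries, while the ratio runs from 2.41 to 2.53 with both extremes in TCN1_OE.

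By gene, the median log2 fold change was -0.14 over 46 MRPL genes and -0.11 over 27 MRPS genes, a difference of -0.03, and 40 and 23 of them lay below 0. This difference was -0.07 without TCN1_OE replicate 2 and -0.06 without NC replicate 1, and the MRPS median was -0.06 without NC replicate 1. When MRPS30 and MRPS18A were counted with the large subunit and MRPS36 left out, the medians were -0.14 and -0.11 again. The groups did not overlap, with TCN1_OE lower, in 21 MRPL and 15 MRPS genes, or 45.7% and 55.6%, against 21.8% of all genes tested. Within the large subunit, the 29 tested genes with a bacterial counterpart had a median of -0.18, with 27 below 0, and the 17 mitochondria-specific genes had a median of -0.10, with 13 below 0. Within the small subunit these medians were -0.09 over 15 genes and -0.11 over 9 genes, in the other order. Position was taken from short lists and was not checked against a structure. In the peptidyl transferase list, all 5 genes tested lay below 0, from -0.33 to -0.0023, with a median of -0.20. That median is the value of MRPL58, named here because its place in this list is uncertain. The 5 of the exit tunnel list (median -0.16) ran from -0.30 to -0.06. The 6 of the decoding site and messenger RNA path (median -0.12) ran from -0.56 to -0.0045. The 5 of the central protuberance (median -0.14) ran from -0.66 to 0.01 and the 3 of the stalk (median -0.0012) from -0.21 to 0.36. These are descriptions of genes in the same 4 libraries and carry no test.

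The other genes of mitochondrial translation, taken from lists, had list medians below 0, and 0 of them passed edgeR in either direction, while DESeq2 called 1 of them. Of 5 mitoribosome subunits with other names, all tested, 4 lay below 0, with a median of -0.11. GADD45GIP1, a large-subunit protein, stood at -0.27 ± 0.11 and AURKAIP1, a small-subunit protein, at -0.14 ± 0.12. Of 27 assembly factors tested, 21 lay below 0, with a median of -0.20. C1QBP, a mitochondrial matrix protein, came nearest to a call, with 70.8 and 69.7 FPKM in TCN1_OE and 91.4 and 94.1 FPKM in NC, at -0.40 ± 0.08 (log2 fold change), edgeR adjusted p 0.0764, and was called by DESeq2, with an adjusted p of 0.0265. FASTKD2, an RNA-binding protein needed for the large ribosomal RNA, stood at -0.34 ± 0.12. Of 15 translation factors tested, 11 lay below 0, with a median of -0.09. The messenger RNA-binding protein LRPPRC stood at -0.23 ± 0.08 and TACO1, an activator of COX1 translation, at -0.52 ± 0.25. Of 15 mitochondrial tRNA synthetases tested, 12 lay below 0, with a median of -0.12, led by EARS2 at -0.32 ± 0.12 and NARS2 at -0.34 ± 0.13. At an unadjusted p under 0.05, edgeR gave 1 other subunit, 2 assembly factors, 1 translation factor and 3 synthetases lower and 0 higher. These were 20.0% of the 5 other subunits, 7.41% of the assembly factors, 6.67% of the translation factors and 20.0% of the synthetases, against 6.81% of all genes tested, so the assembly and translation factors were near the share of all genes.

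Cytosolic ribosomal proteins, which make the ribosomes of the cytosol, lay on both sides of 0. Of 80 tested, 32 lay below 0 and 48 above, with a median of 0.03. Of these, 0 passed edgeR or DESeq2. At an unadjusted p under 0.05, edgeR gave 3 higher, where 6.00% of all genes were, and 4 lower (5.00%), where 6.81% were. The smallest p values belonged to the paralogs RPL7L1 and RPL22L1, at -0.32 ± 0.08 and -0.57 ± 0.16. The summed level of the 84 listed cytosolic genes was 13980 and 13067 FPKM in TCN1_OE and 13998 and 12269 FPKM in NC, higher in replicate 1 of both groups. The median log2 ratio of replicate 2 to replicate 1 of the cytosolic genes was -0.08 in TCN1_OE and -0.20 in NC. Of these 80 genes, 56 were lower in replicate 2 of both groups, where 5120 of all 15113 genes tested were. RNA encoded by mitochondrial DNA took 6.04 and 5.65% of the counts in TCN1_OE and 5.33 and 5.13% in NC. With those counts taken out of the totals, the members held 0.314 ± 0.004% in TCN1_OE and 0.344 ± 0.012% in NC, a difference of -8.89% against -9.48% with them. This share can also follow RNA quality, whose part in the result was not tested.

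**Figure D5:**
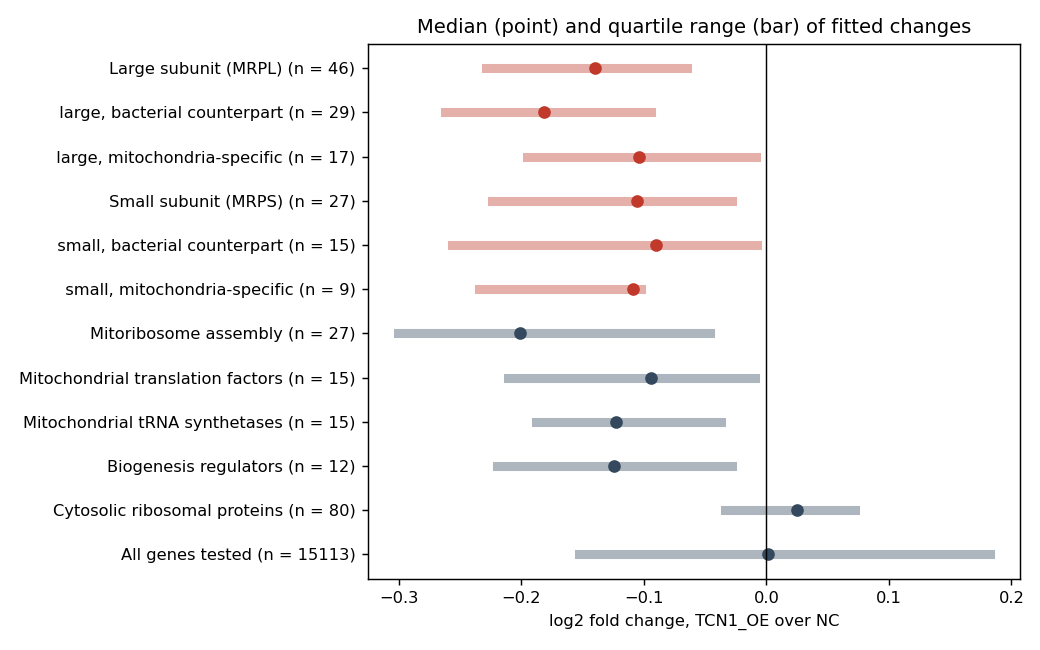
Median (point) and quartile range (bar) of the edgeR log2 fold change of TCN1_OE over NC for the members by subunit and by presence of a bacterial counterpart (red), and for other mitochondrial translation lists, cytosolic ribosomal proteins and all genes tested (dark). The medians of the member groups lie between -0.18 and -0.09 and those of the other mitochondrial lists between -0.20 and -0.09, while the cytosolic ribosomal proteins and all genes are at 0.03 and 0.00.

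Transcription of nuclear genes for mitochondria is known to depend on NRF1, on GABP, a factor of the ETS family made of GABPA and GABPB1, and on YY1, while MYC binds the E-box. Of 12 such regulators tested, 9 lay below 0, where 49.7% of all genes tested did, and 0 passed edgeR. At an unadjusted p under 0.05, edgeR gave 3 of the 12 lower, where 6.81% of all genes were, and DESeq2 called 1 lower, where it called 0.992% of all genes lower. PPRC1, a coactivator of the PGC-1 family, had 9.25 and 10.8 FPKM in TCN1_OE and 13.9 and 15.5 FPKM in NC, a log2 fold change of -0.56 ± 0.12 with an edgeR adjusted p of 0.0845, and was the regulator called by DESeq2, with an adjusted p of 0.0132. GABPB1 had 4.72 and 4.13 FPKM in TCN1_OE and 5.89 and 5.95 FPKM in NC, a log2 fold change of -0.42 ± 0.13 with an edgeR adjusted p of 0.195. Its partner GABPA stood at -0.08 ± 0.13, MYC at -0.22 ± 0.10, NRF1 at -0.23 ± 0.14 and YY1 at -0.12 ± 0.08. TFAM, which packages mitochondrial DNA, stood at -0.21 ± 0.11, POLRMT at -0.13 ± 0.15 and TFB2M at -0.06 ± 0.12. The 3 regulators above 0 were PPARGC1B at 0.12 ± 0.14, ESRRA at 0.10 ± 0.15 and PPARGC1A at 0.06 ± 0.30. PPARGC1A, the gene of PGC-1α, was barely expressed, with 0.266 and 0.224 FPKM in TCN1_OE and 0.221 and 0.254 FPKM in NC.

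Promoter windows from RefSeq (GRCh38.p14), each from 250 bases before to 50 bases after an annotated start, were found for 67 of the 76 members, in 83 windows, and were searched on both strands for the letters of the sites of these factors. The ETS letters CCGGAAG were in 38.6% of the members' windows, against 10.3% of all 35116 windows kept and 16.4% of those of the genes tested. They occurred in 17 of 41 MRPL and 12 of 26 MRPS genes. The YY1 letters AAGATGG were in 31.3% of the members' windows, against 5.84% of all windows and 6.74% of those of the genes tested, and occurred in 15 MRPL and 8 MRPS genes. The E-box CACGTG was in 10.8% of the members' windows, against 7.26% of all windows and 9.07% of those of the genes tested. The NRF1 letters GCGCATG were in 7.23%, against 4.43% and 6.48%. The ETS and YY1 letters can share their AAG, but matches to different motifs shared bases in 0 of the 83 windows. The median log2 fold change was -0.12 over the 28 tested members with the ETS letters and -0.14 over the 37 with a window and without them. It was -0.18 over the 21 with the YY1 letters and -0.11 over the 44 without. Longer forms of the NRF1 and YY1 sites had been searched first and were in 1 and 9 members. They were in 1.20% and 10.8% of the members' windows, against 1.95% and 1.68% of those of the genes tested. The median was -0.30 over the 9 with the longer YY1 form and -0.13 over the 56 without. The members differ in many ways beside these letters, and no test was made. A match describes the letters in the window and does not show a bound site.

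The windows of the 4 members with the smallest p for which one was found are shown 5′ to 3′ on the strand of the gene. That of MRPL41, the highest member in FPKM, is shown to set them beside a gene on the other side of 0. Capitals mark matches to the letters above on either strand.
MRPL3, chr3:131502922-131503221, minus strand: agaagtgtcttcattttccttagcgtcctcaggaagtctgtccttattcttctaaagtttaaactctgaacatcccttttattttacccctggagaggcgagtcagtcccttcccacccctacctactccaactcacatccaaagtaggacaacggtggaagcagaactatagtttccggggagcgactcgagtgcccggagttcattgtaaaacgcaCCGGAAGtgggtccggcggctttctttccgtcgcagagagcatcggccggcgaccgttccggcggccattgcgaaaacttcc
MRPL19, chr2:75646533-75646832, plus strand: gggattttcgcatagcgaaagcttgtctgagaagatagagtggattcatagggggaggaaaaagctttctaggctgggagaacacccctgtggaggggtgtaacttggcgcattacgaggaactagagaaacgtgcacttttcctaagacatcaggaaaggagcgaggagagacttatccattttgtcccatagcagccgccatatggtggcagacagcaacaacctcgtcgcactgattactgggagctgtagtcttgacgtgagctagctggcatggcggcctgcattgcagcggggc
MRPL17, chr11:6683291-6683590, minus strand: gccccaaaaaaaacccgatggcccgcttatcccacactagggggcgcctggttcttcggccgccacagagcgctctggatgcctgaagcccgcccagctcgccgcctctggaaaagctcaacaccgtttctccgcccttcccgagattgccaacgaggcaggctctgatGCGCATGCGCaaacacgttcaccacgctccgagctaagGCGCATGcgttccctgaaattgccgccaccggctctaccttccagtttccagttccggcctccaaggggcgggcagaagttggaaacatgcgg
MRPL36, chr5:1799788-1800087, minus strand: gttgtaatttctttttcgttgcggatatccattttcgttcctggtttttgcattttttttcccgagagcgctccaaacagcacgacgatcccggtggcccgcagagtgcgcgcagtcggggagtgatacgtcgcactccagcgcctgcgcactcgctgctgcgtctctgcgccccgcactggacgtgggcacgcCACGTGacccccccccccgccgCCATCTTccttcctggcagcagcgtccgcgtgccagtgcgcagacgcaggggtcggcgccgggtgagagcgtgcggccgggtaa
MRPL41, chr9:137551629-137551928, plus strand: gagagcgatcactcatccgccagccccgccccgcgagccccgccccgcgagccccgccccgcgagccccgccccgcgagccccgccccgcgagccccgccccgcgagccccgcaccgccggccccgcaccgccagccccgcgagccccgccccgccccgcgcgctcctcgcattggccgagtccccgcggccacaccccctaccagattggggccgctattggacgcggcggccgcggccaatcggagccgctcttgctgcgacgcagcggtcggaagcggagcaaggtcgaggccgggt
MRPL3 held the ETS letters, MRPL17 those of NRF1, and MRPL36 an E-box and, on the opposite strand, the YY1 letters, while MRPL19 and MRPL41 held none of these letters in the window shown. With a match, the log2 fold change was -0.33 ± 0.10 (SE) in MRPL3, -0.36 ± 0.12 in MRPL17 and -0.39 ± 0.14 in MRPL36. Without one, it was -0.33 ± 0.10 in MRPL19 and 0.12 ± 0.14 in MRPL41. The genes below 0 were shown for their small p, so these values do not test the letters.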

How the data were processed

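PolyA RNA from HaCaT cells was sequenced as 2 TCN1_OE and 2 NC libraries, made with the NEBNext Ultra kit, per the labels' protocols; that kit does not mark strand, so overlapping genes on opposite strands cannot be told apart. Per the submitters' processing notes, HISAT2 and HTSeq 0.13.5 were used with GRCh38; the sources used here give no HISAT2 version, annotation release or rule for reads with several matches, so genes that share reads with pseudogenes or overlapping genes are uncertain. The deposited files hold the read count and the FPKM of each gene, per the file headers. Dividing the count by the FPKM and the summed counts gave one length per gene in all libraries.

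The counts were tested with edgeR 4.0.16 (R 4.3.3): TMM factors, filterByExpr with a minimum count of 10, robust quasi-likelihood fit with group as the only term on all 4 libraries, and Benjamini-Hochberg adjustment over the 15113 genes kept, with a threshold of 0.05. SEs were taken as the absolute log2 fold change over the root of the F statistic. Alternatives were DESeq2 1.42.0, limma 3.58.1 on log2(FPKM + 0.5) or (FPKM + 1), other scalings and filters, a replicate term and leaving out each library. The edgeR step was tested on simulated counts. Replicates differed by more than counting noise (chi-square per degree of freedom 8.54 in TCN1_OE and 8.40 in NC). Exonic overlap and gene positions came from GENCODE 29 (GRCh38), in which all 76 members were found.

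The members and lists were chosen with earlier results of these data known. Members were named by rule: in each subunit the 6 smallest p, the 3 highest and 2 lowest mean FPKM, the 2 largest changes each way among genes of at least 1 FPKM, and MRPS18A, MRPS18C, MRPS30 and MRPS36 for their placement; exceptions are stated. Floors and standard errors cover these libraries only, and floors cover counting error only.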

Additional observations from a re-analysis of the deposited data

How the results depend on the processing

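The count of 0 members called higher held under all 12 alternative fits, and that of 0 called lower under all but the fit with a replicate block. The replicate numbers are shared by TCN1_OE and NC, but with 2 pairs and no label that ties them they do not show pairing; the deviations of same-numbered libraries correlated at 0.15 over genes. With the replicate block, edgeR called 17 of 73 members lower and 0 higher. Of all 15113 genes it called 1216 higher and 1655 lower, where the fit without the block called 43 and 32. The block moved no median log2 fold change by more than 0.01. The number of genes called higher and lower was 78 and 53 with upper-quartile factors, 200 and 275 with no filter, 111 and 115 with DESeq2, 1 and 0 with limma at either pseudocount, 14 lower with a filter of at least 1 FPKM, and 104 to 188 higher and 106 to 142 lower when 1 library was left out. In these fits, too, 0 members were called. At an unadjusted p under 0.05, the members lower ran from 4 of 73 (DESeq2) to 15 of 76 (edgeR, no filter). This covers the fits on all 4 libraries without the block. Of all genes, 694 of 15113 and 1435 of 29209 were lower in these fits.

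The median over the MRPL genes was -0.12 with upper-quartile factors, which also moved the median of all genes to 0.02, and -0.17 to -0.13 with 1 library left out. That over the MRPS genes was -0.14 to -0.063 (without NC replicate 1) and the difference between subunits -0.068 (without TCN1_OE replicate 2; -0.064 without NC replicate 1) to -0.026 with 1 library left out. The members below 0 numbered 53 of 74 to 67 of 76 in edgeR fits on the counts with all or 3 libraries, and 52 of 66 with the filter of at least 1 FPKM. With 1 library left out, the log2 fold change ran from -0.18 (without TCN1_OE replicate 2) to 0.76 for MRPL12, from -0.076 (without TCN1_OE replicate 2) to 0.29 for MRPL41 and from -0.29 to 0.090 (without TCN1_OE replicate 2) for MRPS36. Without TCN1_OE replicate 1 it was 0.0020 for MRPS16 and -0.023 for MRPS17. It was 0.01 for MRPS36 without NC replicate 1 and 0.0027 for MRPS18A with upper-quartile factors; these 7 were the changes of sign among 306 values of 26 named members, and the values with a changed sign were not called. The cause was not tested. The median SE of a member was 0.12; the libraries of a group differed by more than counting noise, so this SE is not set by depth alone.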
